A study of Mus musculus with 6 samples.

Results

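Plxdc1, Arfgef3, Tmem268, Dusp15 and S100a1 are 5 genes with little described role in the lens whose transcripts were higher in transgenic than in wild-type mouse lenses. They were chosen by name, with 1 leading probe set each, because of their size of change between the same arrays that are described here. They are 5 of 18193 genes with a value, and 11 probe sets of 45037 carry their symbols. All 11 had values on all 6 arrays, and none was removed for being dim. Since the genes were selected on this contrast, their differences are given as a description, without a test.

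Lenses of Balb/c mice, taken whole 2 days after birth, gave RNA for 3 transgenic samples (T1 to T3) and 3 wild-type samples (W1 to W3), with 1 Affymetrix array each. The labels name neither the transgene nor the promoter that drives it, and the design text gives 12 lenses per genotype without saying whether replicates shared them. Nothing states that replicates came from separate animals, so each p-value rests on array-to-array spread that may be partly technical. In whole-tissue RNA, fewer cells of a type and less RNA per cell cannot be told apart.

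The lens is a layer of epithelial cells over elongated fiber cells that stop dividing, fill with crystallins and lose their organelles. The 5 proteins have separate roles. Plxdc1, also called tumor endothelial marker 7, is a membrane protein with a plexin-like domain that binds nidogen and cortactin and serves as a receptor for pigment epithelium-derived factor. Arfgef3, also called BIG3, is a large relative of the Sec7 exchange factors that switch on ARF GTPases in membrane traffic, and it was linked to insulin granules in mouse beta cells and to prohibitin 2 in human breast cancer cells. Tmem268 is a transmembrane protein. Dusp15 is a small, myristoylated member of the atypical dual specificity phosphatases that was studied in rodent oligodendrocytes. S100a1 is a small calcium-binding protein of the S100 family, abundant in heart and skeletal muscle, where it binds ryanodine receptors and the calcium pump of the sarcoplasmic reticulum.

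The values are normalised log2 signals per probe set, so that 1 unit is a 2-fold difference. In the leading probe sets, which were also each gene's brightest, the transgenic and wild-type arrays did not overlap for any of the 5 genes. Over all genes, transgenic arrays lay entirely above wild-type arrays in 15.3%, and the choice of the members fixes where they fall. Of the other 6 probe sets, 5 also lay higher in every transgenic array than in every wild-type array, beside 13.6% of all probe sets. The exception was a dim probe set of Plxdc1. These 6 belong to the same chosen genes on the same arrays, so their share is a description too.

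**Figure D1:**
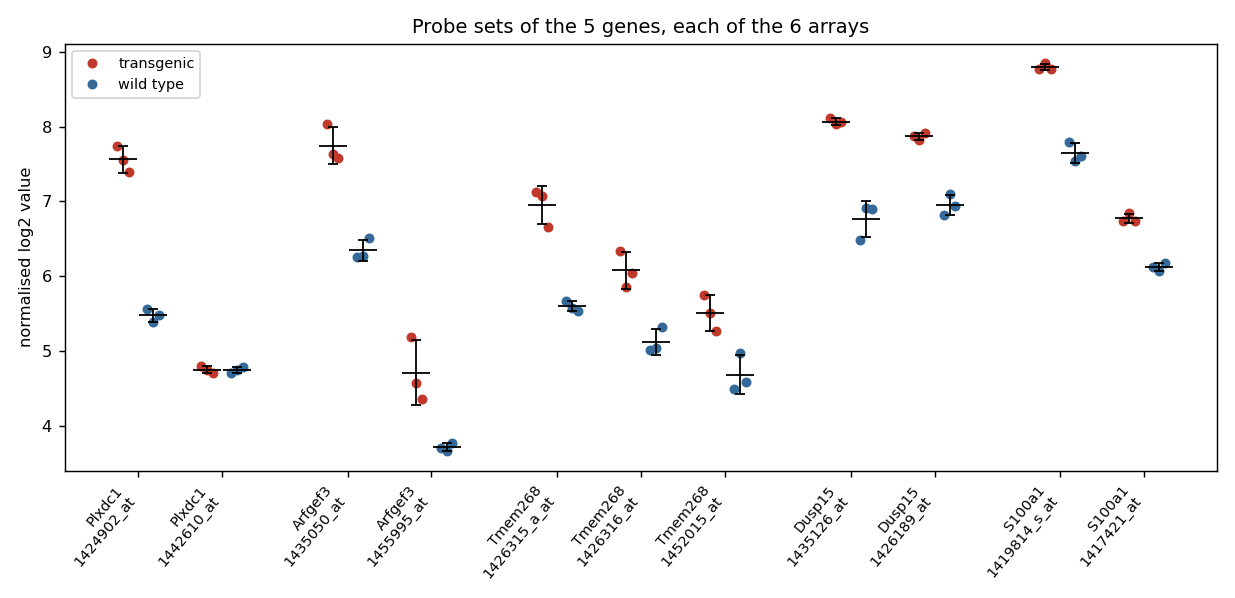
Normalised log2 value (vertical axis) of the 11 probe sets of the 5 genes (horizontal axis), with transgenic arrays left of wild-type arrays. Points are single arrays (replicates 1, 2 and 3 from left to right), and bars show the mean and SD of 3 arrays. In 10 of the 11 probe sets all transgenic points lie above all wild-type points, and the other probe set of Plxdc1 shows no separation.

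Plxdc1 had the greatest difference of the 5. Its leading probe set stood at 7.74, 7.55 and 7.39 in T1, T2 and T3, against 5.56, 5.39 and 5.48 in W1, W2 and W3. The lowest transgenic array lay 1.83 log2 units above the highest wild-type array. The means were 7.56 ± 0.18 in transgenic and 5.48 ± 0.08 in wild-type lenses (SD, n = 3 each), a difference of 2.08 ± 0.11 (moderated SE) or 4.23-fold. It ranked 4 among the rises of all 18193 genes. The wild-type mean lay near 5.34, the median over every probe set, where background may limit a fold. Its other probe set stood at 4.81, 4.75 and 4.71 in transgenic and 4.72, 4.75 and 4.79 in wild-type arrays, all under that median. Its groups overlapped, with a difference of 0.0031, so the rise of Plxdc1 rests on 1 of its 2 probe sets.

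Arfgef3 was higher on both of its probe sets. The leading probe set gave 8.03, 7.63 and 7.57 in T1, T2 and T3, against 6.26, 6.27 and 6.51 in W1, W2 and W3. All 3 transgenic arrays exceeded the wild-type ones by at least 1.06 log2 units. The means were 7.74 ± 0.25 in transgenic and 6.35 ± 0.14 in wild-type lenses (SD, n = 3 each), a difference of 1.40 ± 0.14 (moderated SE) or 2.63-fold. The other one gave 5.20, 4.58 and 4.37 in transgenic arrays and 3.71, 3.67 and 3.78 in wild-type arrays, a difference of 0.99. Its wild-type values lay below the lower quartile of all probe sets, 4.18, where background may shrink a fold. On both probe sets T1 was the highest array and T3 the lowest of the transgenic ones.

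The 250 bases before the annotated start of Arfgef3 are shown because the gene shares this end with Gm32926, a long noncoding RNA gene on the opposite strand that is described with the neighbours. The sequence (RefSeq, GRCm38.p6, chr10:18743759-18744008, minus strand) is written with matches of CCAAT and GGGCGG, on either strand, in capitals.
Arfgef3: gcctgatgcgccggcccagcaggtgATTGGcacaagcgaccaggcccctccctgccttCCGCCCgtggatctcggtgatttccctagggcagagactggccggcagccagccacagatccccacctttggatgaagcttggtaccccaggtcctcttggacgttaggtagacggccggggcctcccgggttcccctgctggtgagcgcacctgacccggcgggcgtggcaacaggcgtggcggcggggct
It holds 68.4% G and C and 18 CpG pairs, against medians of 52.4% and 6 over 32851 such windows.

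Tmem268 was higher on all 3 of its probe sets. Its leading probe set read 7.13, 7.07 and 6.67 in T1, T2 and T3, against 5.67, 5.58 and 5.54 in W1, W2 and W3. T3 was the lowest transgenic array and still lay 0.99 above the highest wild-type one. The means were 6.95 ± 0.25 in transgenic and 5.60 ± 0.07 in wild-type lenses (SD, n = 3 each), a difference of 1.35 ± 0.13 (moderated SE) or 2.56-fold. Another probe set gave 6.34, 5.86 and 6.04 in transgenic and 5.02, 5.04 and 5.33 in wild-type arrays, a difference of 0.95. The remaining probe set gave 5.76, 5.51 and 5.27 in transgenic and 4.49, 4.98 and 4.59 in wild-type arrays, a difference of 0.82. The groups stayed apart on each.

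RefSeq gives Tmem268 2 starts here, and the 250 bases before the start that lies further upstream are shown as a contrast to Arfgef3 (GRCm38.p6, chr4:63558513-63558762, plus strand). Matches of GGGCGG are in capitals.
Tmem268: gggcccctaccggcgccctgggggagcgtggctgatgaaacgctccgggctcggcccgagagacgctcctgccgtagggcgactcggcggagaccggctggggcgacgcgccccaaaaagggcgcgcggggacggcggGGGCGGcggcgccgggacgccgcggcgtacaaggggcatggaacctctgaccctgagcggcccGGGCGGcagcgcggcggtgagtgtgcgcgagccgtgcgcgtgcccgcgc
This window holds 78.4% G and C and 42 CpG pairs, whereas the window before the other start holds 55.2% and 2, with 1 match of CCAAT on the opposite strand.

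Dusp15 was higher on both probe sets, with close transgenic arrays. The leading one gave 8.11, 8.03 and 8.06 in T1, T2 and T3, against 6.49, 6.91 and 6.90 in W1, W2 and W3. The spread lay in the wild-type group, where W1 was the lowest. The means were 8.07 ± 0.04 in transgenic and 6.77 ± 0.24 in wild-type lenses (SD, n = 3 each), a difference of 1.30 ± 0.13 (moderated SE) or 2.46-fold. The other one read 7.87, 7.82 and 7.91 in transgenic and 6.83, 7.10 and 6.94 in wild-type arrays, a difference of 0.91 ± 0.10 (moderated SE). W1 was again the lowest array.

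S100a1 was higher on both probe sets, with little spread among transgenic arrays. The leading one read 8.77, 8.84 and 8.77 in T1, T2 and T3, against 7.79, 7.55 and 7.61 in W1, W2 and W3. The nearest arrays of the groups, T3 and W1, were 0.98 log2 units apart. The means were 8.80 ± 0.04 in transgenic and 7.65 ± 0.13 in wild-type lenses (SD, n = 3 each), a difference of 1.15 ± 0.10 (moderated SE) or 2.21-fold. The other one stood at 6.74, 6.84 and 6.74 in transgenic and 6.12, 6.07 and 6.18 in wild-type arrays, a difference of 0.65 ± 0.08 (moderated SE). Both put T2 highest, and the groups were apart on both. In Affymetrix naming the leading probe set's ending, _s_at, marks probes that may match several transcripts, and the annotation lists S100a1 alone for this probe set.

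S100a1 and its neighbour S100a13 are annotated head to head: S100a1 runs on the minus strand and S100a13 on the plus strand, and their gene spans overlap by 98 bases. The 104 bases between the starts given for each gene in the promoter table are shown because both genes were higher, as described below (RefSeq, GRCm38.p6, chr3:90514331-90514434, minus strand, S100a1 to the right).
S100a1: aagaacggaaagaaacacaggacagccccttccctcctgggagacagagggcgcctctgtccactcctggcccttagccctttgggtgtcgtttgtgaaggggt
No letters are in capitals, since none of the 5 motifs searched occurred there or in the full 250 bases before S100a1.

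Promoter windows were at hand for Arfgef3, Tmem268 and S100a1, 4 windows in all, and for neither Plxdc1 nor Dusp15. Each was searched on both strands for 5 motifs. They were the forkhead core, whose letters are TGTTTA, and the CCAAT box. The GC box, spelled GGGCGG, was also searched. The last were the TATA element with the letters TATAAA, and the AP-1 site, for which TGANTCA was used. The forkhead core was included because Foxe3, a forkhead gene active in lens epithelium, ranked 1 among the rises, with 13.33, 13.42 and 13.39 in T1 to T3, against 8.54, 8.86 and 8.82 in W1 to W3. The forkhead core, the TATA box and the AP-1 letters were in none of the 4 windows. They occur in 12% (forkhead core), 12.4% (TATA box) and 6.75% (AP-1 site) of all 32851 windows. CCAAT was in 2 of the 4 and occurs in 33.8% of all windows, and GGGCGG was in 2 of the 4 and occurs in 32.7%. No match overlapped one of another motif. A match describes letters only, and a missing match says only that these letters are not in these windows.

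**Figure D2:**
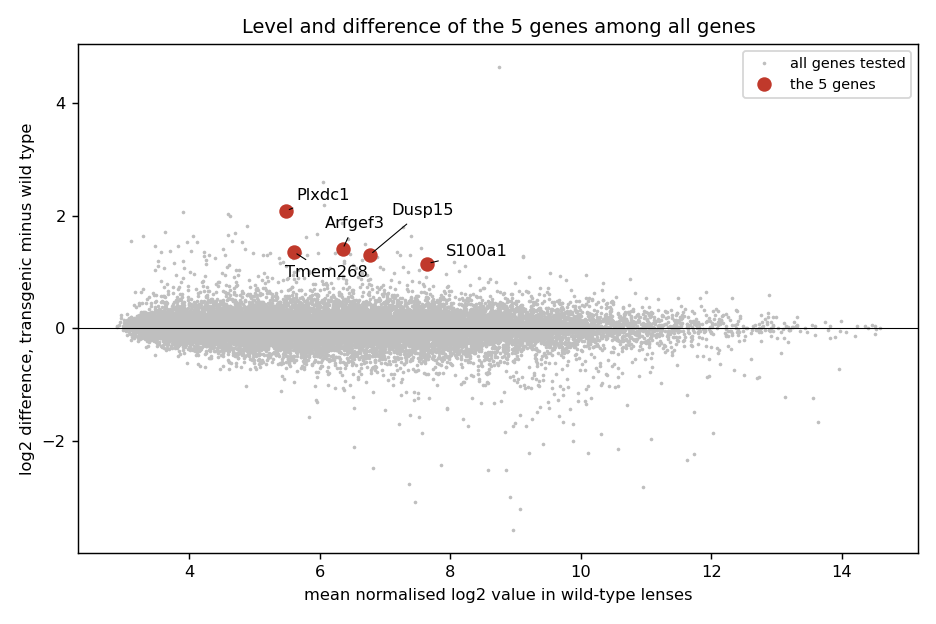
Log2 difference, transgenic minus wild type (vertical axis), against the mean normalised log2 value in wild-type lenses (horizontal axis) for 18193 genes in grey and the 5 genes in red. The 5 genes lie between 1.15 and 2.08, on the upper edge of the cloud.

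Among the rises of all genes, Plxdc1 ranked 4, Arfgef3 31, Tmem268 38, Dusp15 48 and S100a1 71. A log2 difference of at least 1 was reached upward by 93 genes, 0.511% of those tested. The rule for the 5 genes holds no threshold, so no gene lies just outside it.

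Transgenic replicates varied differently from gene to gene. T1 was the highest transgenic array on 4 of the 5 leading probe sets and T3 the lowest on 4. Plxdc1, Arfgef3 and Tmem268 had SDs of 0.18, 0.25 and 0.25 among transgenic arrays, above the median SD of 0.12 over all genes. Dusp15 and S100a1 had SDs of 0.04 each. Among wild-type arrays, Dusp15 had the greatest SD of the 5, 0.24, with a median over all genes of 0.12.

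T3 stood apart from the other arrays by skin and muscle transcripts. The mean log2 value of 11 measured keratinocyte genes was 9.42 in T3, against 5.47 and 5.59 in the other transgenic arrays and 5.54 to 6.11 in wild-type arrays. For 13 skeletal muscle genes it was 7.84 in T3, 4.89 and 5.05 in T2 and T1, and 5.07 to 5.42 in wild-type arrays. The 5 genes were not highest in T3, and without that array their differences were 2.17 for Plxdc1, 1.48 for Arfgef3, 1.50 for Tmem268, 1.30 for Dusp15 and 1.16 for S100a1. Each was as large as with all arrays.

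Markers of the cell types in which these genes are known were looked up next. Over all genes 1.93% were higher and 2.61% lower, so lists this short would hold few or no calls at those shares. Of 12 endothelial genes, Tek rose (0.49 ± 0.11, moderated SE; limma adjusted p = 0.0465), none fell and 11 did not pass. Only 2 of the 12 had positive differences, and the list's median difference was -0.13. At an unadjusted limma p under 0.05, 1 was higher and 1 lower, beside 2099 higher and 1974 lower of all 18193 genes. The mean of the list was 6.71 to 6.94 in transgenic and 6.72 to 7.16 in wild-type arrays. None of 9 measured genes of myelinating glia passed in limma, and 1 higher and 1 lower had an unadjusted p under 0.05; their mean was 6.19 to 6.38 in transgenic and 6.17 to 6.33 in wild-type arrays. None of the 13 muscle genes and none of the 11 keratinocyte genes passed in limma, with 0 at an unadjusted p under 0.05 in either list. Their median differences of 0.80 (muscle) and 1.19 (keratinocyte) went with T3.

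Other lists checked the tissue. The mean of 10 measured lens genes was 12.50 to 12.63 in transgenic and 12.74 to 12.83 in wild-type arrays. Of the 10, only Birc7 passed and fell, with a difference of -1.61. The list's median difference was -0.016, and 4 of the 10 were positive. Cryaa differed by 0.034 and Mip by 0.043, against -0.45 for Bfsp2 and -0.32 for Gja3. Of 14 neural retina genes, Elavl4 and Sncg fell, 14.3% of the list beside 2.61% of all genes. The list's median difference was -0.33, and 2 of the 14 were positive. At an unadjusted limma p under 0.05, 0 were higher and 5 lower. The mean was 7.13 to 7.70 in transgenic and 7.50 to 7.97 in wild-type arrays. Of 8 pigment cell genes, Mitf fell and 7 did not pass, and those 7 had positive differences, with a list median of 0.45. T2 stood apart here: the list's mean was 8.48 in T2, 7.30 in T1 and 7.86 in T3, against 7.42 to 7.60 in wild-type arrays. Dct, an enzyme of melanin synthesis, stood at 10.77 in T2, 8.81 in T1 and 9.80 in T3, against 8.84 to 9.20 in wild-type arrays. Without T2 the differences of the 5 genes were 2.09 for Plxdc1, 1.45 for Arfgef3, 1.30 for Tmem268, 1.32 for Dusp15 and 1.12 for S100a1. None of 3 measured blood genes passed in limma, with 0 at an unadjusted p under 0.05, and their mean was 4.59 to 4.77 in transgenic and 4.74 to 5.02 in wild-type arrays. No marker is at 0 on this log2 scale. The part of these other cells in the 5 genes' values was not tested beyond the values without T2 or T3.

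**Figure D3:**
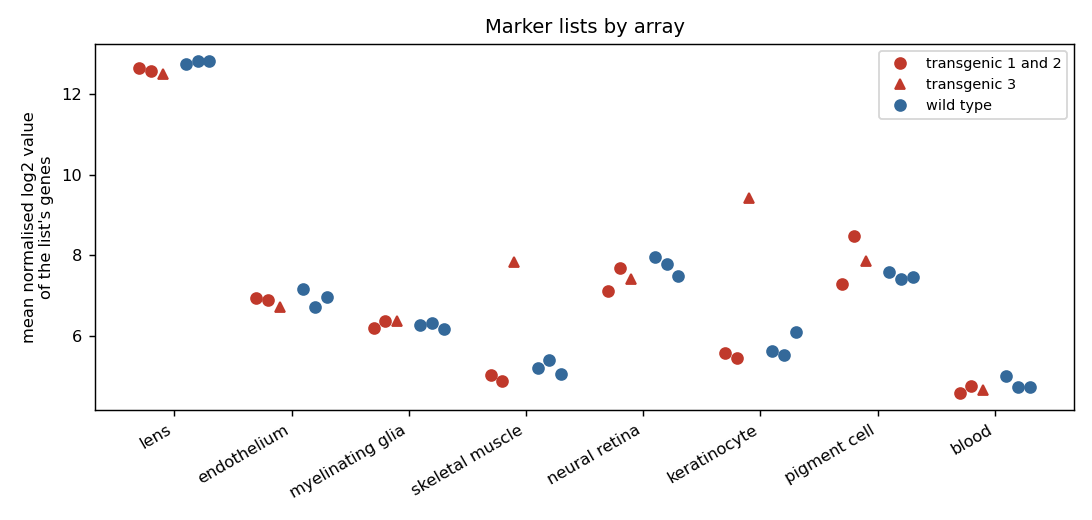
Mean normalised log2 value over the measured genes of each marker list (vertical axis) on each array, with transgenic arrays in red left of wild-type arrays in blue and T3 as a triangle. T3 stands at 9.42 for keratinocyte genes and 7.84 for skeletal muscle genes, above all other arrays.

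Relatives and known partners of the 5 genes passed the test, in either direction, about as often as genes in general. Of 85 measured genes in 8 lists, 3 rose and 2 fell (limma, adjusted p under 0.05), against 1.93% higher and 2.61% lower over all genes tested. In percent this is 3.53% higher and 2.35% lower, 5 of 85 in all, beside 4.55% of all genes called in either direction. At an unadjusted limma p under 0.05, 17 of the 85 were higher and 6 lower, beside 2099 higher and 1974 lower of 18193 genes. The median difference was 0.088, against 0.011 over all genes. Over all genes 352 rose and 475 fell, so that 42.6% of calls were upward; after shifting arrays to a common median it was 27.4%, with 254 higher and 673 lower. With the common median, 8 of the 85 were higher and 9 lower at an unadjusted limma p under 0.05. Without T3, 1 of the 85 rose and 2 fell (adjusted p under 0.05).

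In the S100 family, S100a13 rose and 11 of 12 measured genes did not pass, with a median difference of 0.062. S100a13, a calcium and copper binding protein that takes part in the release of proteins lacking a signal peptide, stood at 6.50, 6.47 and 6.61 in T1 to T3, against 6.08, 5.86 and 5.82 in W1 to W3. The groups did not overlap, and the difference was 0.61 ± 0.10 (moderated SE; limma adjusted p = 0.0174). The call held without T3 (adjusted p = 0.0397) or W1 (0.0158) and was lost without T1, T2, W2 or W3, at up to 0.0790. S100b, the family member of glia, differed by -0.030 and S100a5 by 0.27. S100a4 differed by -0.35 and S100a6 by -0.31, with transgenic arrays below all wild-type arrays in both, as in 13.5% of all genes. Neither passed (limma adjusted p = 0.129 and 0.169), though both had an unadjusted p under 0.05.

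S100a3, S100a14 and S100a16, which are expressed in skin, followed T3. S100a3 stood at 6.59 in T3, 4.15 and 4.32 in the other transgenic arrays and 4.04 to 4.41 in wild-type arrays. S100a14 stood at 7.82 in T3, 4.71 and 4.61 in the other transgenic arrays and 4.66 to 5.41 in wild-type arrays. S100a16 stood at 9.68 in T3, 8.29 and 8.44 in the other transgenic arrays and 8.10 to 8.38 in wild-type arrays. S100a10 was also highest in T3, at 9.65, against 8.10 and 8.50 in T1 and T2 and 8.72 to 9.04 in wild-type arrays. None of these genes passed, at limma adjusted p from 0.375 to 0.885. S100a1, at 8.77 in both T1 and T3, did not share this pattern.

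Of 10 measured genes of calcium release and uptake, which hold the known partners of S100a1 in muscle, none passed in limma on its brightest probe set, and 1 had an unadjusted p under 0.05. With probe sets tested singly, 1 rose and 1 fell. The ryanodine receptor genes Ryr1 and Ryr2 differed by -0.0083 and -0.020, with transgenic means of 4.59 (Ryr1) and 4.61 (Ryr2), in the range where background may hide a change. The calcium pump gene Atp2a2 averaged 11.27 ± 0.04 in the transgenic and 11.13 ± 0.06 in the wild-type group (SD, n = 3 each), and its difference of 0.14 missed the threshold. On the other 3 of its 4 probe sets above the median level, Atp2a2 differed by 0.29, 0.41 and 0.49, and the last rose when tested singly (limma adjusted p = 0.0393). Itpr2, an inositol trisphosphate receptor gene, differed by -0.037 on its brightest of 6 probe sets, whereas 1 averaged 4.84 in transgenic and 5.87 in wild-type lenses and fell by 1.03 (limma adjusted p = 0.0123, tested singly). Others of Itpr2 differed by -0.72, -0.38, 0.052 and 0.11 and did not pass. The inositol trisphosphate receptor gene Itpr3 (0.31), the pump gene Atp2a3 (0.25) and Ryr3 (0.23) did not pass either. The list's median was 0.095.

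Among 16 measured atypical dual specificity phosphatases, Dusp3 rose and 15 did not pass, with a median difference of 0.17. In this list 5 genes were higher and 0 lower at an unadjusted limma p under 0.05. Dusp3, also called VHR, acts on the MAP kinases ERK and JNK. Its mean was 8.32 in the transgenic and 7.88 in the wild-type group (n = 3 each), with a difference of 0.44 ± 0.09 (moderated SE; limma adjusted p = 0.0389). Its other probe sets differed by 0.13 and -0.024, and the call was lost with any 1 array left out (adjusted p from 0.0590 to 0.138), on the values as deposited (0.0562) and after centring on a common median (0.0749). Dusp22, which like Dusp15 is myristoylated, differed by 0.20 and did not pass. Dusp11 (0.28), Dusp18 (0.28), Dusp19 (0.23) and Dusp13 (0.30) did not pass.

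Of 10 classical MAP kinase phosphatases, Dusp4 fell and 9 did not pass, with a median difference of 0.0049. Here 2 genes were higher and 1 lower at an unadjusted limma p under 0.05. Dusp4, an inducible nuclear phosphatase of ERK, averaged 5.45 in the transgenic and 6.39 in the wild-type group (n = 3 each) and fell by 0.93 on the log2 scale (moderated SE 0.08; limma adjusted p = 0.00103). It passed with any 1 array left out, at adjusted p up to 0.0102. Dusp8 (0.48), Dusp16 (0.22), Dusp10 (-0.19) and Dusp2 (0.27) did not pass.

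None of the 15 Sec7 domain exchange factors related to Arfgef3 passed in limma, and 2 had an unadjusted p under 0.05. Arfgef1 and Arfgef2, which encode BIG1 and BIG2 of the trans-Golgi network, differed by 0.13 and 0.088. Iqsec2 (0.28), Psd (0.27), Cyth4 (0.19) and Cyth2 (-0.19) had the smallest p of the list and did not pass, and the median was 0.044. Of 8 ARF and ARF-like GTPase genes, Arf5 fell and 7 did not pass, with a median of -0.029. Among these 8, 3 were higher and 2 lower at an unadjusted limma p under 0.05. Arf5 averaged 8.32 in the transgenic and 8.76 in the wild-type group (n = 3 each), a difference of -0.45 ± 0.10 (moderated SE; limma adjusted p = 0.0439), and its call held only without T3 (0.0408) when 1 array was left out, with 0.140 as the highest p. Arf2 (0.36), Arf6 (-0.34), Arf3 (0.28) and Arf4 (0.25) did not pass on their brightest probe sets. Another of the 4 probe sets of Arf4 averaged 8.64 in the transgenic and 8.03 in the wild-type group and rose by 0.62 when tested singly (limma adjusted p = 0.0318), while the remaining ones differed by 0.096 and 0.33. With trended robust variances 1 gene of this list rose.

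Of 5 genes in the list of the close relative and binding partners of Plxdc1, none passed in limma on its brightest probe set, and 1, Plxdc2, had an unadjusted p under 0.05. Plxdc2 stood at 8.07, 7.81 and 8.14 in T1 to T3, against 8.39, 8.29 and 8.41 in W1 to W3, a difference of -0.35 ± 0.11 (moderated SE; limma adjusted p = 0.105). The groups did not overlap, with transgenic arrays lower, and over all genes 13.5% lay that way. The nidogen genes Nid1 and Nid2, for proteins of the lens capsule and other basement membranes, differed by 0.12 and -0.077, and Serpinf1, for pigment epithelium-derived factor, by 0.13. The probe sets of the cortactin gene Cttn disagreed. The brightest differed by 0.092, while another of 5 averaged 10.81 ± 0.08 in transgenic and 10.22 ± 0.08 in wild-type lenses (SD, n = 3 each). That one rose by 0.59 when probe sets were tested singly (limma adjusted p = 0.0132), and the other 3 differed by -0.12 to 0.0017. The list's median was 0.092.

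Of 9 plexins, semaphorin receptors that share an extracellular domain type with Plxdc1, Plxnb3 rose and 8 did not pass, with a median of 0.051. Among the plexins 3 were higher and 0 lower at an unadjusted limma p under 0.05. Plxnb3 averaged 6.22 in the transgenic and 5.79 in the wild-type group (n = 3 each), a difference of 0.43 ± 0.08 (moderated SE; limma adjusted p = 0.0300). With any 1 array left out the adjusted p was 0.0558 to 0.114. The other probe set of Plxnb3 differed by 0.30 and did not pass when tested singly (limma adjusted p = 0.151). With the mean of its probe sets the call was lost (0.0561). Plxnb1 (0.29), Plxna1 (0.26), Plxna4 (0.15) and Plxnc1 (-0.17) did not pass.

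**Figure D4:**
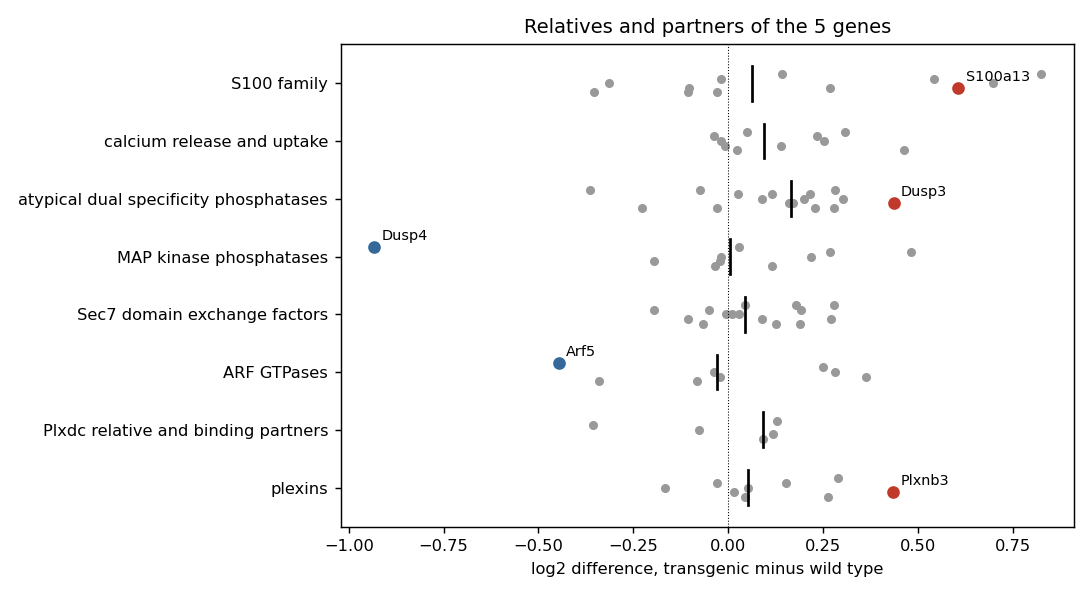
Log2 difference, transgenic minus wild type (horizontal axis), of 85 measured relatives and partners in 8 lists (rows). Red points rose and blue points fell (limma, adjusted p under 0.05), grey points did not pass, and black bars are list medians, which run from -0.029 to 0.17.

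Genes beside the 5 on the chromosome were taken from the order of the RefSeq annotation, up to 3 measured genes on each side. Of these 30 neighbours, 2 rose, none fell in limma and 28 did not pass, with a median difference of 0.13, beside 1.93% higher and 2.61% lower over all genes. At an unadjusted p under 0.05, 9 of the 30 were higher and 2 lower, against 2099 higher and 1974 lower of 18193 genes. The risers were S100a13, next to S100a1, and Stac2, the third measured gene from Plxdc1. With probe sets tested singly these 2 rose and 1 probe set of Lasp1, near Plxdc1, fell. Stac2, whose protein has an SH3 domain, stood at 7.91, 7.54 and 7.38 in T1 to T3, against 6.64, 6.92 and 7.08 in W1 to W3. The difference was 0.73 ± 0.16 (moderated SE, limma adjusted p = 0.0490). With 1 array left out it passed only without T3 (0.0339), with 0.135 as the highest p. The call was also lost after centring on a common median (0.0529), with means of probe sets (0.0550) and with the replicate block (0.134). Cacnb1 and Rpl19, which lie between Plxdc1 and Stac2, differed by 0.0020 and 0.048.

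Each of the 5 genes overlapped 1 other gene in the annotation, and 3 of those overlapping genes were measured. S100a13 is described above. Gm32926, which overlaps the start of Arfgef3 by 288 bases on the opposite strand, averaged 5.77 in the transgenic and 5.28 in the wild-type group (n = 3 each). The arrays did not overlap, and the difference of 0.49 ± 0.12 (moderated SE) did not pass (limma adjusted p = 0.0608). Ttll9, which overlaps Dusp15 and encodes a relative of tubulin-modifying ligases, differed by 0.37 ± 0.13 (moderated SE) with overlapping groups and did not pass (limma adjusted p = 0.146). Whether probes of these genes pick up each other's transcripts was not tested.

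Perp, the third measured gene from Arfgef3, encodes a membrane protein of desmosomes in skin and stood at 8.62, 8.24 and 10.35 in T1 to T3, against 7.18, 7.12 and 7.50 in W1 to W3. Its difference of 1.80 ± 0.48 (moderated SE) did not pass (limma adjusted p = 0.0785), and its highest array was T3, which carried the skin transcripts. Without T3 it was 1.16 and passed (adjusted p = 0.00906). Hebp2 and Nhsl1, on the other side of Arfgef3, differed by -0.068 and -0.38. With 1 array left out, Nhsl1 passed only without W1, with a difference of -0.54 (limma adjusted p = 0.0351). Of the neighbours of Tmem268, Atp6v1g1, for a subunit of the vacuolar proton pump, differed by 0.32, and Tnc, for the matrix protein tenascin C, by 0.28. Foxs1, a forkhead gene beside Dusp15, differed by -0.032, and the spindle gene Tpx2 by -0.51 (limma adjusted p = 0.0707), while another Tpx2 probe set differed by 0.56. Snapin and Chtop, beside S100a1, differed by 0.32 and 0.25, and neither passed.

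**Figure D5:**
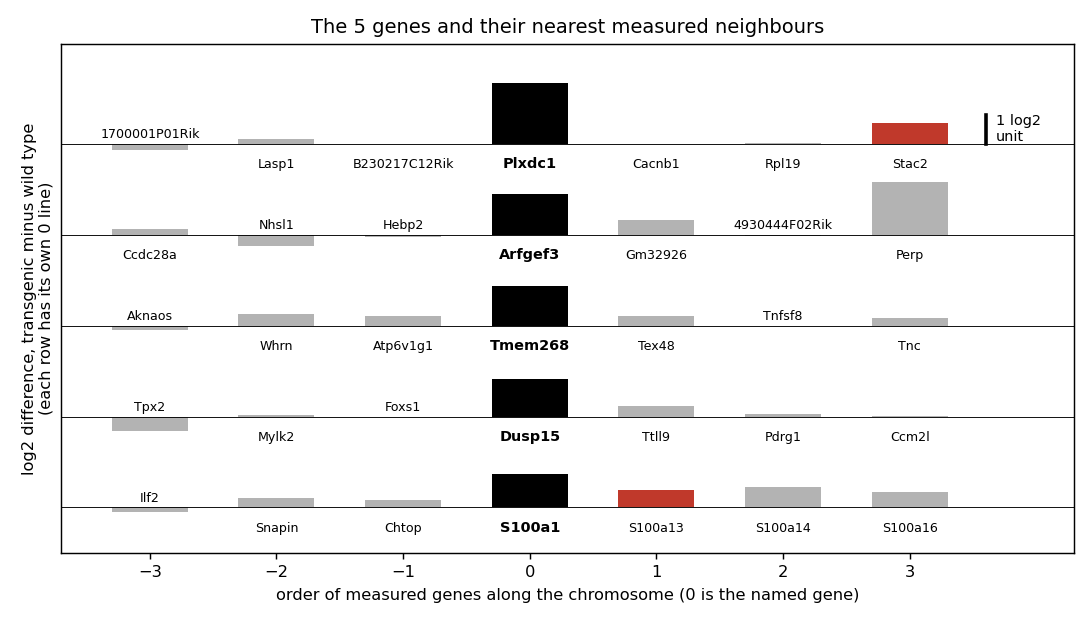
Log2 difference, transgenic minus wild type (bar height, with a scale bar of 1 log2 unit), of each of the 5 genes in black and its measured neighbours in chromosome order (horizontal axis). Red bars passed (limma, adjusted p under 0.05) and grey bars did not. S100a13 and Stac2 are red, and Perp, the tall grey bar, differed by 1.80.

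For each of the 5 genes, the 3 genes with the most similar values over the 6 arrays were found by Euclidean distance between mean-centred log2 values. The search covered 11627 other genes at or above the median level and left out genes with provisional symbols. The arrays of a group share their genotype, so such a likeness mostly restates a like difference between the genotypes. Nearest to Plxdc1 were Neat1 at a distance of 0.82, Srpk3 at 0.87 and Arfgef3 at 0.88 (Pearson r = 0.98, 0.95 and 0.99 over 6 arrays). No other gene searched lay closer to Plxdc1. Nearest to Arfgef3 were Tnfrsf23 at 0.26, Wls at 0.30 and Tmem268 at 0.40 (r = 0.99, 0.99 and 0.97).

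Tmem268 lay nearest to Slc4a4 at 0.36, Ccn2 at 0.38 and Wls at 0.40 (r = 0.99, 0.97 and 0.97 over 6 arrays). Dusp15 lay nearest to Tnfrsf23 at 0.29, Wls at 0.31 and Tnfrsf22 at 0.32 (r = 0.99, 0.98 and 0.99). S100a1 had the closest matches of the 5, Retreg1 at 0.17, Slc4a4 at 0.21 and Ccn2 at 0.24 (r = 0.99 each). Wls, for the carrier of Wnt proteins, was in 3 of these lists, and Tnfrsf23, a decoy death receptor gene, Slc4a4, for a sodium bicarbonate cotransporter, and Ccn2, for a secreted matrix-associated protein, were in 2 each. Tnfrsf23 averaged 8.54 in the transgenic and 7.19 in the wild-type group, and Wls averaged 10.40 in the transgenic and 9.11 in the wild-type group.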

How the data were processed

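The authors deposited log2 values, 1 for each probe set on each array, and the scale was read from their range. How they summarised and normalised probes is not given in the sources used here. A GenElute kit was used for RNA and biotin label was added during transcription in vitro, per the labels' protocols. The files name no genome build.

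From these values, 64 control probe sets were removed. Upper quartiles of the arrays differed by 0.120, above the limit of 0.1, and the 45037 probe sets left were quantile normalised. Of these, 34945 had 1 symbol, 932 several and 9160 none here, by GEO's annotation of the platform. RefSeq (GRCm38.p6) gave current symbols for 99.4% of them. A gene is its brightest probe set. Genotypes were compared over 18193 genes with limma 3.58.1 in R 4.3.3 (lmFit, eBayes, Benjamini-Hochberg adjusted p, threshold 0.05). Errors of differences are moderated SEs. On simulated data for this comparison (18193 genes), the recovered share was 22% at a true log2 change of 0.5, 90% at 1 and 100% at 2, and 3.70% of calls were false.

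The 5 genes, the 16 lists and the motifs were chosen with earlier results of these data known. Named genes were the 5 with every probe set, each list gene past the threshold plus up to 4 with the smallest p, up to 3 measured neighbours per side and the 3 nearest profiles per gene. Other relatives, neighbours and markers named, and Foxe3, were added for context. Alternatives were the deposited values, a common median, no dim probe sets, mean or single probe sets, trended robust variances, a replicate block and each array left out. The number of arrays limits the precision.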

Additional observations from a re-analysis of the deposited data

How the results depend on the processing

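The 5 genes stayed higher in transgenic lenses in every setting run on them. Since they were chosen for their rise on these same arrays, this is a description only. With 1 array left out, the log2 difference ran from 1.99 to 2.17 for Plxdc1, 1.25 to 1.48 for Arfgef3, 1.27 to 1.50 for Tmem268, 1.16 to 1.37 for Dusp15 and 1.10 to 1.22 for S100a1. Averaging a gene's probe sets, which brings in dimmer ones, gave 1.04 for Plxdc1, 1.04 for Tmem268, 1.11 for Dusp15 and 0.90 for S100a1, and a common median gave 1.05 for S100a1. Tested singly, 580 probe sets were higher and 905 lower, and 6 probe sets of related genes were higher (S100a13, Dusp3, Plxnb3, Arf4, Atp2a2 and Cttn) and 3 lower (Dusp4, Arf5 and Itpr2). With 1 array left out, 70 to 249 genes were higher and 156 to 385 lower (limma). Of the related genes, 0 to 1 were then higher and 1 to 2 lower. At an unadjusted limma p under 0.05, 11 to 17 of the related genes were higher and 4 to 7 lower. With all arrays these counts were 17 higher and 6 lower of 85, beside 2099 and 1974 of all 18193 genes. The low ends over all genes came without W2 (70 and 156) or W3 (156 lower). Without T2, 72 genes were higher, with 76 without W3, 112 without T1 and 176 without W1. Fewer arrays were tested in these fits. With means of probe sets, 1 related gene was higher. The replicate block gave 69 higher and 154 lower genes, and 0 higher and 1 lower related genes (limma). At an unadjusted limma p under 0.05 it gave 16 higher and 7 lower related genes. The replicate numbers are only numbers in the labels, and no pairing was assumed. Deviations of same-numbered arrays correlated at -0.052 (T1 and W1), 0.084 (T2 and W2) and 0.028 (T3 and W3). T1 correlated best with W3 (0.075), while T2 and T3 correlated best with their same-numbered arrays. With 3 arrays per group, such small correlations cannot decide whether arrays were paired. Signals near background, such as the wild-type values of Plxdc1 and Tmem268, may understate a fold.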
